A study of Mus musculus with 4 samples.

Results

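The HCN genes encode the channels of the cardiac pacemaker current, and 3 of them, Hcn2, Hcn3 and Hcn4, were followed across the chambers and genotypes of the mouse heart. They were chosen by gene name, each had 1 probe set, and together they are 3 of 18783 named genes on the array. The arrays compared atria and ventricles of Mef2a+/+ mice (wild type) with those of Mef2a knockout mice, aged 2 months in every group and given no treatment in the labels. Mef2a encodes a DNA-binding regulator of muscle genes from the MADS-box family. Each of the 4 groups was 1 array that carried RNA pooled from 7 mice, with males and females both used in the study. The strain, the allele and whether the same mice gave both chambers are not given in the sources used here. With no replicate array in any group, no difference could be tested or compared with a spread between replicates, and each value describes these pools.

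HCN channels open when the membrane becomes more negative and let sodium and potassium ions through, which carries the cell back towards threshold between beats. Cyclic AMP binds a domain in their C-terminal part and makes them open more readily, which is a link from adrenergic and muscarinic signalling to heart rate. Hcn4 is known as the main isoform of the sinoatrial node, the small region of the right atrium where the beat starts. Hcn2 is found in nodal and working heart muscle and in neurons, and Hcn3 has been described in ventricular muscle. In a whole chamber, fewer cells that express a gene and less RNA per cell cannot be told apart.

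Sequences just upstream of the start sites were looked up for the 3 genes, as the mice are labelled as lacking a transcription factor. The promoter set used held no window for Hcn3, so only the sequences of Hcn2 and Hcn4 are shown. They are the 250 bases before the annotated start, 5′ to 3′ on the plus strand, from RefSeq for GRCm38.p6, at chr10:79716384-79716633 for Hcn2 and chr9:58822699-58822948 for Hcn4. Capitals mark GC boxes, the letters GGGCGG on either strand.
Hcn2: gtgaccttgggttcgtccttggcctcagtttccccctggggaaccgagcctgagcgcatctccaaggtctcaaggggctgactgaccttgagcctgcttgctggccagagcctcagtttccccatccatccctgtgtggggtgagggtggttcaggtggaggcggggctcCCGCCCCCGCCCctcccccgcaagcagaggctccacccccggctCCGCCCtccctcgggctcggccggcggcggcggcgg
Hcn4: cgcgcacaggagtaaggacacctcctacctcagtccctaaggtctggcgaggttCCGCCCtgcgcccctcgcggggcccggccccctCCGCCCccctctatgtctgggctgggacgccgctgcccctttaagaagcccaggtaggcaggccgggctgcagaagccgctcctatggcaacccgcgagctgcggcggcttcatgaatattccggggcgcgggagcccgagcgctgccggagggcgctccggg
Both windows were rich in G and C, with 70.4% in Hcn2 and 71.2% in Hcn4, against a median of 52.4% over 32851 promoter windows of the same length. The Hcn2 window held 3 GC boxes and the Hcn4 window 2, and 32.7% of all windows held at least 1. A match to the MEF2 consensus, searched on both strands, occurred in 2.92% of all windows and in neither of these. The same was found for the T-box motif GGTGTGA (3.33% of all windows) and for the GATA motif AGATAA (9.99%). The E-box CANNTG, present in 66.2% of all windows, occurred at 1 place in the Hcn2 window and was absent from the Hcn4 window. These are matches of letters in a short window and say nothing about binding there or elsewhere.

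The deposited values are log2 intensities, and the median of all values in the table, 5.71, is called the floor. It is a cut for reading low values, and no measure of background was used to set it. A gene was called higher or lower when it differed by at least 1.5-fold between genotypes or 2-fold between chambers, with the brighter array of the pair at or above the floor. Array medians lay between 5.66 and 5.75, and values on the array labelled knockout atria were the most compressed, with an interquartile range of 2.97 against 3.18 to 3.21 on the others. Mef2a itself stood at 10.32 and 10.41 on the wild type and knockout-labelled atrial arrays and at 10.28 and 10.34 on the ventricular arrays. It was not lower in either knockout-labelled pool, and which part of the gene was deleted is not given in the sources used here, so the signal does not check the labels. The chamber labels matched their markers: all 10 atrial cardiomyocyte genes were at least 2-fold higher in wild type atria, and 6 of 8 ventricular genes were at least 2-fold higher in wild type ventricles. Over all genes above the floor 3.89% were that much higher in wild type atria and 2.21% in wild type ventricles.

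Hcn4 was highest in wild type ventricles. Its log2 intensity was 5.79 in wild type atria, 5.75 in knockout-labelled atria, 6.93 in wild type ventricles and 6.13 in knockout-labelled ventricles. All 4 values were above the floor, but both atrial ones by less than 0.1, so the gene was close to the floor in the chamber that holds the sinoatrial node. The wild type ventricles array stood well above the other 3.

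Hcn2 had its own order of the groups. Its values were 5.61 in wild type atria, 5.95 in knockout-labelled atria, 7.05 in wild type ventricles and 7.69 in knockout-labelled ventricles. Only the wild type atria value lay below the floor. Both ventricular arrays were above both atrial arrays, and in each chamber the knockout-labelled array was the higher.

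Hcn3 was flat and low. Its values were 4.64, 4.62, 4.69 and 4.56 on the wild type atria, knockout-labelled atria, wild type ventricles and knockout-labelled ventricles arrays. All 4 were about 1 log2 unit below the floor and within 0.13 of each other, so no order of the groups can be read from them. In RefSeq the Hcn3 gene overlaps Pklr, a pyruvate kinase gene that was also below the floor on every array. How the probes treat the overlap is not given in the sources used here. Intensities of different probe sets cannot be compared, so these values do not rank the 3 genes by abundance.

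**Figure D1:**
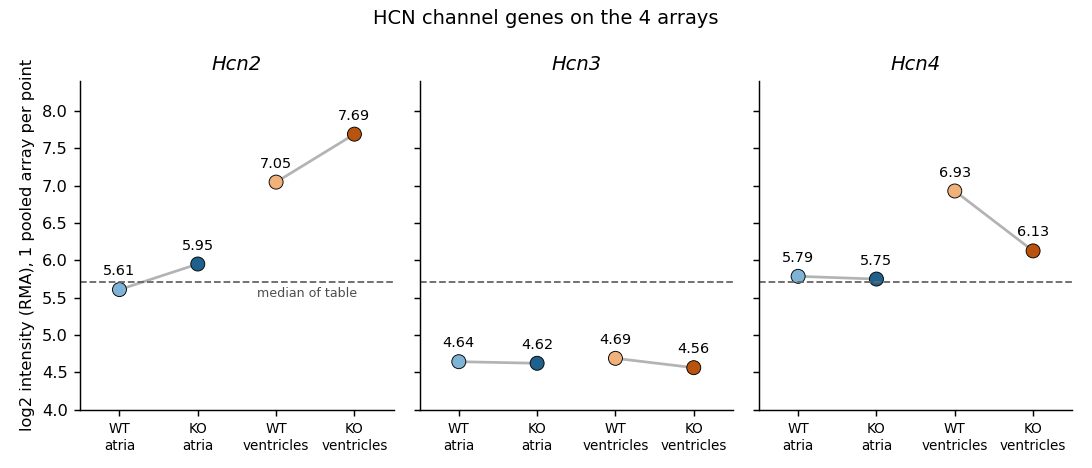
Log2 intensity (RMA) of Hcn2, Hcn3 and Hcn4 on the 4 arrays, with 1 point per pooled array, lines joining the genotypes of a chamber and a dashed line at the table median of 5.71. Hcn4 is at 6.93 in wild type ventricles and between 5.75 and 6.13 elsewhere, Hcn2 reaches 7.69 in knockout-labelled ventricles, and Hcn3 stays below the dashed line.

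Knockout-labelled against wild type ventricles asked which transcripts differ in the lower chambers between mice labelled Mef2a knockout and wild type. Hcn4 and Hcn2 were called in opposite directions. Hcn4 was 1.74-fold lower, a log2 ratio of −0.80, from 6.93 to 6.13. Hcn2 was 1.56-fold higher, a log2 ratio of 0.64, from 7.05 to 7.69. Hcn3, below the floor on both arrays, had a ratio of −0.13.

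These calls can be read against all genes above the floor in the same comparison. Of 9713 genes, 117 (1.20%) passed 1.5-fold, with 0.690% lower and 0.515% higher. Only 36 genes had a lower ratio than Hcn4 and only 37 a higher ratio than Hcn2. A ratio as large as that of Hcn4 in either direction was seen in 0.618% of genes, and one as large as that of Hcn2 in 0.957%. Both ratios thus lay in the outer part of the distribution, whose standard deviation was 0.19. Median centring, quantile normalization and lowess centring of the arrays left Hcn4 between −0.80 and −0.78 and Hcn2 between 0.64 and 0.67. Hcn4 lay below the 75th percentile of the table on both ventricular arrays, and with a floor there (7.27) it was not called.

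In atria the same comparison gave no call. The Hcn4 ratio was −0.04, from 5.79 to 5.75, and the Hcn2 ratio was 0.34, from 5.61 to 5.95, or 1.27-fold higher. Hcn3 was at −0.02, below the floor on both arrays. None of the 3 genes passed 1.5-fold in this comparison, where 305 of 10051 genes above the floor (3.03%) did, 1.02% higher and 2.01% lower. Genes at the level of Hcn2 had a local trend of 0.05 between the atrial arrays, and its ratio was 0.29 after lowess centring. A ratio of that size or more, before centring, was seen in 14.1% of genes, so the atrial difference of Hcn2 was not unusual among genes in these pools.

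**Figure D2:**
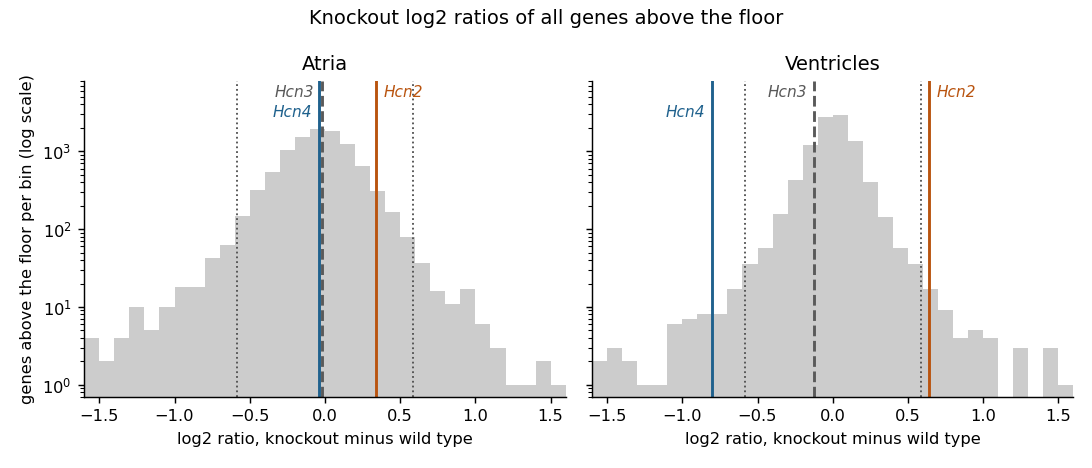
Number of genes above the floor (log scale) by log2 ratio of knockout-labelled minus wild type, in bins of 0.1, for atria and ventricles, with dotted lines at 1.5-fold and the horizontal axis ending at 1.6 in each direction. In ventricles Hcn4 (−0.80) and Hcn2 (0.64) lie outside the dotted lines on opposite sides, in atria both lie inside, and the dashed line is Hcn3, which is below the floor.

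The ventricular and atrial effects were then set side by side, with no test of their difference possible. For Hcn4 the knockout ratio was −0.04 in atria and −0.80 in ventricles, a difference of 0.77, and 1.51% of 10327 genes at or above the floor on any array differed by as much. For Hcn2 the ratios were 0.34 and 0.64, a difference of −0.30 that 20.3% of genes reached or exceeded. The chamber difference of Hcn4 was thus among the larger ones in the table, while that of Hcn2 was not. Hcn4 was at the edge of the floor on both atrial arrays, where differences may be compressed.

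The next comparison, between the chambers of wild type hearts, asked which genes are enriched in one of them. Hcn2 was 2.71-fold lower in atria, with a log2 ratio (atria minus ventricles) of −1.44 from values of 5.61 and 7.05. Hcn4 was 2.21-fold lower in atria, with a ratio of −1.14 from values of 5.79 and 6.93. Hcn3 was at −0.04. Both calls pointed to ventricles. Of the 10035 genes above the floor 6.10% passed 2-fold, 2.21% lower and 3.89% higher in atria. RMA compresses differences at low intensity and the atrial values were near the floor, so these folds may understate the differences.

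On the knockout-labelled arrays the 2 genes parted. Hcn2 was 3.34-fold lower in atria, at −1.74, and only 46 of 10121 genes had a lower ratio. Hcn4 was at −0.38, or 1.30-fold lower, and did not reach 2-fold. For comparison, 6.30% of genes were called, 2.85% lower and 3.46% higher in knockout-labelled atria. Those shares came from 288 and 350 genes, and median centring of the arrays turned them to 377 and 305. Hcn3 was at 0.06, with its sign turned by each of median centring, quantile normalization and lowess centring. The chamber and knockout comparisons have arrays in common, so the smaller chamber ratio of Hcn4 restates its lower value on the knockout-labelled ventricles array.

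Markers of the conduction system were read next, as HCN genes are concentrated there. Of 15 sinoatrial and atrioventricular node genes 14 had a named probe set, and 9 were above the floor in the ventricular comparison. None of those passed 1.5-fold, where 1.20% of all genes did, and their median ratio was 0.01 against 0.00 over all genes above the floor. Tbx3, a repressor that marks nodal tissue, was at 0.16 there, and Gjc1, the gap junction gene of nodal cells, was at −0.28. In atria 1 of 12 nodal genes was called higher, the calcium sensor gene Vsnl1 at 1.32, and 1 lower, Cpne5 at −0.61. The list median there was 0.04, against −0.03 over all genes above the floor. Over all genes 1.02% were called higher and 2.01% lower there. The Cpne5 call was lost under quantile normalization and lowess centring, with a ratio down to −0.55. The defining nodal transcription factors Isl1 and Shox2 were below the floor on all 4 arrays, with Isl1 at 3.72 in wild type atria and 3.92 in wild type ventricles, and Shox2 at 3.61 and 3.52.

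Of 12 nodal genes, 4, Vsnl1, Cpne5, Rgs6 and Cacna1d, were at least 2-fold higher in wild type atria, and none in wild type ventricles, against 3.89% and 2.21% over all genes. Cacna1d, a calcium channel gene of pacemaker cells, was higher in wild type atria at 1.48, against −1.14 for Hcn4. Of the 12 genes 6 had positive and 6 negative ratios, so the list as a whole had no common chamber direction. Those with the sign of Hcn4 included Smoc2 at −0.99 and Tbx3 at −0.33, both short of 2-fold. Genes of the ventricular conduction system had 4 of 9 members called higher and 3 lower in wild type atria, where 3.89% and 2.21% of all genes were. The 4 higher ones were Gja5 at 3.91, Igfbp5 at 1.95, Id2 at 1.77 and Etv1 at 1.57. Lower were Kcne1, a potassium channel subunit gene, at −2.16 and Pcp4, a calmodulin regulator found in Purkinje cells, at −1.32. Irx3, a homeobox gene of the ventricular conduction system, was also lower, at −1.07.

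Against genotype, 0 of 9 ventricular conduction genes passed 1.5-fold in ventricles, where 1.20% of all genes did, and their median was 0.06. Pcp4 came closest, at 0.58 from 6.01 to 6.59, and passed under median centring and lowess centring, with a ratio up to 0.60. It was followed by the gap junction gene Gja5 at 0.51 from 5.59 to 6.10. Irx3 was at −0.32 in ventricles and was called higher in atria, at 0.61, from 5.15 to 5.75. That atrial call was lost under each of median centring, quantile normalization and lowess centring, with a ratio down to 0.52. Like Hcn4, Irx3 passed 2-fold between the wild type chambers but not between the knockout-labelled ones, where it stood at −0.14.

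**Figure D3:**
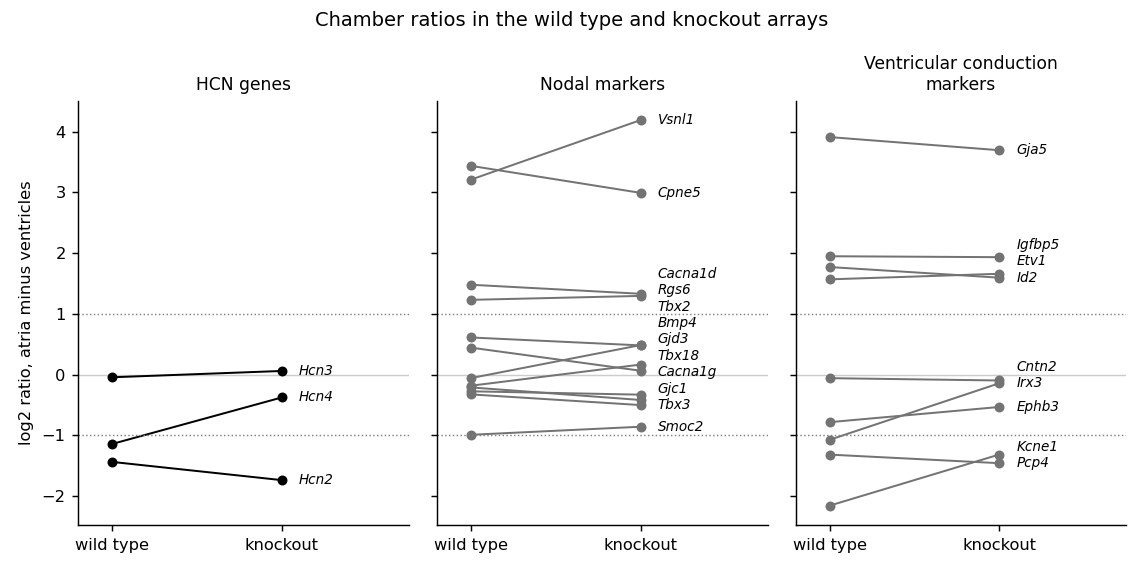
Log2 ratio of atria minus ventricles on the wild type and knockout-labelled arrays for the HCN genes, the nodal markers and the ventricular conduction markers above the floor in either pair, with dotted lines at 2-fold and 1 line per gene. Hcn4 moves from −1.14 to −0.38 and Hcn2 from −1.44 to −1.74, while the nodal markers past 2-fold all lie above 1.

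Markers of other cells were set beside the ventricular calls. Neurons and glia, which also express HCN channels, had 13 of 16 listed genes with a named probe set, and all 13 were below the floor on all 4 arrays. Their highest values were between 5.40 and 5.65 on each array, those of Sox10, a transcription factor of glia. Atrial cardiomyocyte genes were lower in knockout-labelled ventricles in 7 of 7 members above the floor, with a median of −0.32. Among these Nppa was at −0.01, and its sign changed with the scaling of the arrays. Of the members below the floor, Bmp10 was at 0.04, Mybphl at 0.10 and Nr2f1 at −0.18. Sln, the calcium pump regulator sarcolipin, was called lower at −0.85, as were 0.690% of all genes. The median level of all 10 atrial genes was 6.92 in wild type and 6.51 in knockout-labelled ventricles. In the corresponding atria it was 11.34 and 11.43. Their part in the Hcn4 result was not tested. Ventricular cardiomyocyte genes had a median of 0.02 with the slow myosin gene Myh7 called higher at 0.99.

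Fibroblast genes were negative in 9 of 9 members in ventricles, with a median of −0.16 and none past 1.5-fold. The median was 0.04 for 8 endothelial genes and −0.13 for 6 smooth muscle genes, with none past 1.5-fold. Over all genes 1.20% passed there, so nothing is read from the lack of calls in these 3 short lists. Of the skeletal muscle genes 2 of 4 were called lower in ventricles, Myl1 at −3.62 and Casq1 at −2.76, against 0.690% of all genes. Tnni2 at −0.20 and Ckm at 0.03 were not called. Myh1, Myh2, Myh4, Actn3, Mylpf and Pvalb were below the floor on all 4 arrays. The part of these cell types in the HCN values was not tested.

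Genes whose products act on HCN channels were read next. Of 10 accessory protein genes 9 had a named probe set and 6 were above the floor, and none passed 1.5-fold in either chamber. Over all genes 3.03% passed in atria and 1.20% in ventricles, so nothing is read from 0 of 6. Pex5l, encoding the auxiliary subunit TRIP8b, and Kcne2, encoding a small beta subunit, were below the floor on all 4 arrays. The caveolin gene Cav3, whose product binds HCN4 in muscle caveolae, was at 0.13 in atria and 0.17 in ventricles. Nedd4l, a ubiquitin ligase gene, was at −0.23 and 0.04. Irag1, whose product modulates HCN4 and which the table names Mrvi1, was at 0.20 and −0.23, and it was higher in wild type atria than in wild type ventricles at 2.00.

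Cyclic AMP signalling, which sets how readily HCN channels open, had 34 of 39 listed genes with a named probe set. In ventricles 1 of 30 genes above the floor was called, the phosphodiesterase gene Pde3b, higher at 1.06 from 5.64 to 6.70, and 29 were not, with a list median of 0.04. In atria 2 of 31 were called lower. These were Prkar2b, a regulatory subunit gene of protein kinase A, at −1.08 from 6.71 to 5.63, and Gnai1, an inhibitory G protein gene, at −0.64. The list median there was 0.04. The adenylyl cyclase gene Adcy5 was at −0.48 in ventricles and the muscarinic receptor gene Chrm2 at −0.35, short of 1.5-fold. The shares over all genes were 1.20% in ventricles and 3.03% in atria, so nothing is read from 1 or 2 calls in a list of this length.

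The other channels and calcium handling genes of the pacemaker cycle had 0 of 18 members called in ventricles, where 1.20% of all genes were, with a median of 0.01. In atria, with 3.03% of all genes called, 1 of 19 was, Kcnj2, whose inward rectifier current opposes spontaneous depolarization in working muscle, lower at −0.78 from 7.37 to 6.58. In ventricles Kcnj2 was at −0.30 and the acetylcholine-activated channel gene Kcnj3 at −0.46. The T-type calcium channel gene Cacna1g was at 0.12 and 0.18 in atria and ventricles.

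Transcription factors and deacetylases known to regulate HCN genes, or related to such factors, formed the last list. Of 20 such genes 19 had a named probe set, and 0 of 17 in atria and 0 of 16 in ventricles passed 1.5-fold. Against 3.03% and 1.20% over all genes, a count of 0 in so short a list is near the background. The largest sizes were those of Tbx18, which marks the head of the sinoatrial node, at −0.43 in atria, and of the T-box repressor gene Tbx2 at 0.41. In ventricles the gene with the largest size was Tbx5, an activator of atrial and conduction genes, at −0.25, and Rest, which represses neuronal and fetal cardiac genes including HCN genes, was at 0.01. Mef2c was at 0.14 and 0.04 and Mef2d at 0.06 and −0.04 in atria and ventricles. Mef2b was at 0.36 in atria, from 5.41 to 5.77, and at 0.30 in ventricles, where it was below the floor. The medians of this list, 0.02 and −0.02, changed sign with the scaling of the arrays.

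**Figure D4:**
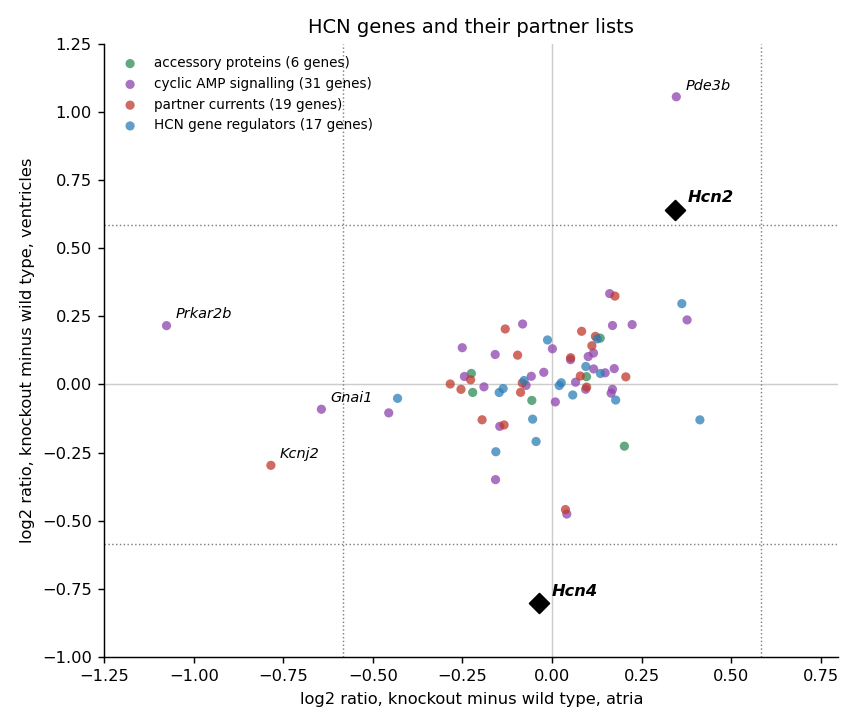
Log2 ratio of knockout-labelled minus wild type in atria (horizontal) and ventricles (vertical) for Hcn2 and Hcn4 (diamonds) and for the members of the 4 partner lists above the floor in either chamber, with dotted lines at 1.5-fold. Hcn4 (−0.04, −0.80) is alone below the lower dotted line, and Pde3b (0.35, 1.06) is the partner gene above the upper one.

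Genes with the profile most like that of each HCN gene over the 4 arrays were found by the Euclidean distance between log2 values centred on each gene's own mean, among 10101 named genes. For Hcn4 the closest was Smim3, a small membrane protein gene, at a distance of 0.10, where a flat profile would be 0.95 from Hcn4. Smim3 was at 5.89, 5.87, 6.92 and 6.19 on the wild type atria, knockout-labelled atria, wild type ventricles and knockout-labelled ventricles arrays. Like Hcn4 it was highest on the wild type ventricles array. Next were Btnl9, a butyrophilin-like gene, at 0.17, Etl4 at 0.20, Myo5b, a vesicle motor gene, at 0.28 and Capn3, the muscle calpain gene, at 0.28. Their ventricular knockout ratios were −0.73 for Smim3, −0.57 for Btnl9, −0.65 for Etl4, −0.44 for Myo5b and −0.53 for Capn3. These genes were picked for closeness to Hcn4 on these same arrays, so ratios of the same sign follow from the choice. Capn3 reached the floor only on the wild type ventricles array, at 5.88.

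For Hcn2 the closest was Nabp1, a single-stranded DNA-binding protein gene, at a distance of 0.17, where a flat profile would be 1.67 from Hcn2. Nabp1 was at 7.48, 7.75, 8.98 and 9.71 on the wild type atria, knockout-labelled atria, wild type ventricles and knockout-labelled ventricles arrays. It had the same order of the 4 arrays as Hcn2. Pcp4 was next at 0.22, followed by the semaphorin gene Sema3b at 0.25, the muscle fructose bisphosphatase gene Fbp2 at 0.26 and the epsin gene Epn3 at 0.27. Their ventricular knockout ratios were 0.73 for Nabp1, 0.58 for Pcp4, 0.49 for Sema3b, 0.29 for Fbp2 and 0.95 for Epn3. Pcp4 and Fbp2 were below the floor on both atrial arrays, and Epn3 on the wild type atria array. With 4 arrays and many genes, close profiles of this kind are a description and carry no test. The genes were picked from these same values, so their shared order and ratios are built in by the choice.

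**Figure D5:**
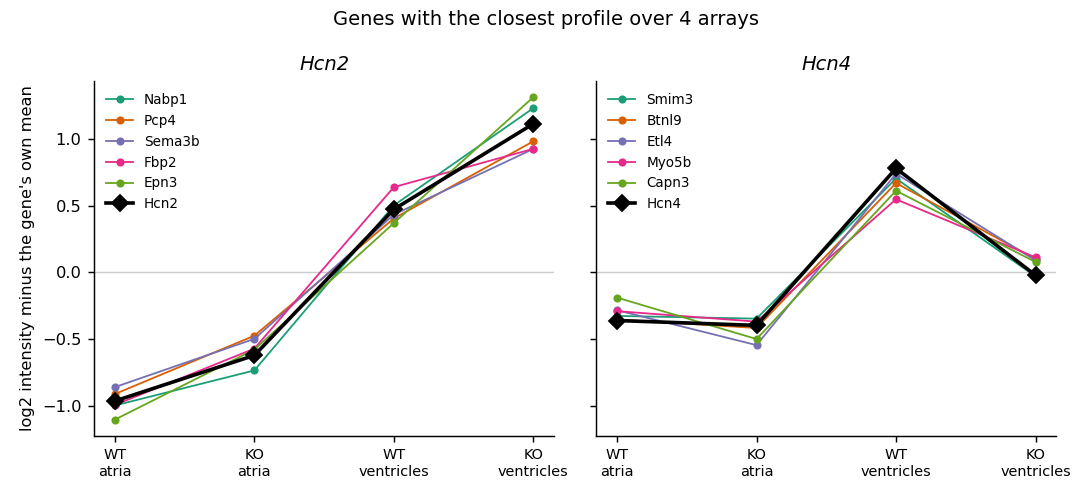
Log2 intensity minus each gene's own mean on the 4 arrays for Hcn2 and Hcn4 (black diamonds) and the 5 genes closest to each, with lines only to guide the eye. The Hcn4 set is highest on the wild type ventricles array, and the Hcn2 set is highest on the knockout-labelled ventricles array.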

How the data were processed

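RNA from dissected atria and ventricles was pooled from 7 mice per group and hybridised to 1 array per group. Per the submitters' processing notes, the authors made the log2 intensities, 1 for each probe set, with RMA and the affy package. The versions of both and the array design are not given in the sources used here. Of 21212 probe sets, 18786 had 1 symbol in the platform annotation, updated through the RefSeq gene table of GRCm38.p6. The other 2426 were left unnamed. For repeated symbols the probe set with the highest mean was kept, which left 18783 genes. Hcn3 and Hcn4 appear as old synonyms of each other in RefSeq, so members were matched by gene number.

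Values were compared as differences of log2 values in 4 comparisons, with no test (Python 3.11.15, pandas 2.3.3, statsmodels 0.14.6 for lowess). The floor, 5.71, is the median of all values in the table. The count of genes past a fold was tested on simulated data. Alternatives were 3 scalings, 2 other floors and 2 other pairs of folds. The members and gene lists were chosen with earlier results of these data known. A rule chose genes to name: the members, and the list genes past 1.5-fold in a knockout comparison. Where none of a list passed, the 2 of largest size were taken. The rule added the 2 nearest named genes on each side of each member and the 5 genes of closest profile. Some of these genes, neighbours among them, were left out above. Among the markers left out in atria, Cnn1 (−1.29), Lum (−0.84), Nr2f1 (−0.69) and Tnnt3 (−0.66) were called lower. So were Pdgfra (−0.63), Dpt (−0.62) and Tnni2 (−0.59), and Acta2 (0.61) was called higher. Over all genes 2.01% were called lower and 1.02% higher there. The calls of Pdgfra, Dpt and Acta2 were lost under at least 1 scaling. Further list genes given with values were picked after their values were seen. Promoter sequences are from RefSeq. Precision is limited by having 1 array per group.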

Additional observations from a re-analysis of the deposited data

How the results depend on the processing

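Median centring, quantile normalization and lowess centring moved no HCN log2 ratio by more than the standard deviation of olfactory receptor genes in the same comparison, and no HCN call changed under them. The Hcn3 chamber ratio on the knockout-labelled arrays, at 0.06, became −0.03, −0.10 and −0.10, and the Hcn3 difference between chambers in the knockout ratio, at 0.10, became −0.04 under quantile normalization. Floors and folds decided more. With a floor at the 75th percentile of the table, 1 HCN gene (Hcn2) was called in the ventricular knockout comparison and 0 in the wild type chamber comparison. Over all genes 56 and 406 were called with that floor. With 2-fold for genotype and 3-fold for chamber both comparisons had 0 HCN genes, where 36 and 230 of all genes passed. With the only lower genotype fold tried, the atrial knockout comparison had 1 (Hcn2, higher). At that fold 1615 of 10051 genes above the floor passed in atria, so nothing is read from that 1 call. Hcn2 lay close to that lower fold, at 1.27-fold in atria, so other folds below 1.5 need not call it. These counts of HCN genes were added after the values were seen.

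Counts over all genes depended on the same choices. Without a floor 558 genes passed in the atrial and 220 in the ventricular knockout comparison. With the floor at the 75th percentile there were 115, 56, 406 and 419 in the atrial knockout, ventricular knockout, wild type chamber and knockout-labelled chamber comparisons. With lower folds (1.5 for chamber) there were 1615, 511, 1632 and 1815, and with 2-fold for genotype and 3-fold for chamber 65, 36, 230 and 197. The scalings kept each within 1.5 times. For gene lists, 161 alternative counts were within 1.5 times of the reported one and 49 were not. No paired analysis was possible because each group had 1 array and the labels give no replicate numbers.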

Other observations

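Other channels with a cyclic nucleotide-binding domain were mostly low in these chambers. Of 14 such genes with a named probe set, 2 were at or above the floor in wild type atria and 2 in wild type ventricles. Kcnh7, a potassium channel gene of the ERG group, was called higher in knockout-labelled atria at 0.92, from 6.16 to 7.08. It was below the floor in ventricles, at 3.97 and 3.87. Cnga3, a cyclic nucleotide-gated channel gene best known from cone photoreceptors, stood at 4.76, 5.14, 5.76 and 5.20 on the wild type atria, knockout-labelled atria, wild type ventricles and knockout-labelled ventricles arrays. It reached the floor only on the wild type ventricles array, with a ventricular knockout ratio of −0.57.

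The genes next to the HCN genes in RefSeq order were also read. Of 12 neighbours, 8 were above the floor, and 0 were called in any of the 4 comparisons. Over all genes 3.03% were called in the atrial and 1.20% in the ventricular knockout comparison. The shares were 6.10% between wild type chambers and 6.30% between knockout-labelled ones, so nothing is read from 0 of 8. In ventricles the ratios of these 8 neighbours ran from −0.09 to 0.25. On the Hcn4 side these were Nptn at −0.07, Neo1 at 0.00 and Adpgk at 0.06, and on the Hcn2 side Bsg at 0.08 and Polrmt at −0.06. Between wild type chambers Polrmt, beside Hcn2, was lower in atria at −0.71, short of 2-fold.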
